A study of Mus musculus with 6 samples.

Results

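The genes described here mark the dendritic cells of the mouse spleen. They are 9 genes given by name, chosen for their known use as markers or regulators of conventional type 1, conventional type 2 and plasmacytoid dendritic cells: Flt3, Zbtb46, Clec9a, Batf3, Clec4a4, Esam, Siglech, Tcf4 and Spib. All 9 were found by symbol among the 47729 genes of the count table, and all 9 passed the filter on low counts. RNA was sequenced from whole spleens of 3 NOD.B10 females (NOD.B10Sn-H2b/J, the mouse model of primary Sjögren's syndrome) and of 3 BL/10 females (C57BL10/SnJ), the healthy controls. No treatment or engineered allele is given for either strain, and the 3 libraries of a strain are stated to be biological replicates.

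Dendritic cells take up antigen and present it to T cells. Conventional dendritic cells fall into type 1 cells (cDC1), which excel at presenting antigen from dead cells to CD8 T cells, and type 2 cells (cDC2), which mainly prime CD4 T cells and sit largely at the marginal zone bridges of the spleen. Plasmacytoid dendritic cells (pDC) sense viral nucleic acids through endosomal TLRs and secrete type I interferon. All of these cells are a small share of the spleen, and several of the 9 genes are also used by other spleen cells, as is said for each gene.

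The labels of the 6 libraries contradict each other. The titles and strain fields name one strain, while the descriptions and the column names of the table name the other, in every library. The strain in the descriptions and column names was used, and every direction given here would be reversed under the titles. The labels give an age of 26 weeks for 4 libraries and of 36 weeks for BL/10 replicates 2 and 3, although the study text states 26 weeks for all. Whether age had a part in a strain difference was not tested beyond a comparison of the 26-week libraries alone, which leaves a single BL/10 library.

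Total counts lay between 15662712 and 18298451 per library. Values are given as CPM, counts relative to the library size as scaled by the TMM factors of edgeR, and log2 fold changes are NOD.B10 minus BL/10, so that a positive value means higher in NOD.B10. The quasi-likelihood test of edgeR was used, and a gene was called changed where its p, adjusted by Benjamini-Hochberg over all 15330 genes tested, was under 0.05. At that threshold 1396 genes were higher (9.11%) and 1260 lower (8.22%) in NOD.B10, 17.3% in all. BL/10 replicate 1 stood apart by 12 pancreas acinar genes, which summed to 13537 CPM there, to 2046 and 112 CPM in BL/10 replicates 2 and 3 and to between 22.4 and 31.5 CPM in the NOD.B10 libraries. All 12 were lower in NOD.B10, and the call was lost for each of them without NOD.B10 replicate 1 or 3. Marker lists of other cells also differed between the strains. Of 12 T cell markers 11 were higher in NOD.B10 (summed level 833 to 1110 CPM against 382 to 541 CPM in BL/10), and of 10 neutrophil markers 9 were lower (2172 to 2524 CPM against 6169 to 12872 CPM). The remaining neutrophil marker, Cxcr2, named here after its values were seen, leaned the other way and was not called. It had 55.5 CPM in NOD.B10 and 37.1 CPM in BL/10 (log2 fold change 0.58, adjusted p = 0.106 from edgeR). Without NOD.B10 replicate 3, 7 neutrophil markers were called lower and 1 higher. In RNA of a whole organ, fewer cells of a type and less RNA per cell cannot be told apart, and the part of these cell types in the results below was not tested.

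Among the 9 dendritic cell genes, 1 rose and none fell in NOD.B10 by this test. The gene that rose was Clec4a4, which encodes the cDC2 lectin DCIR2, at 2.33 times its BL/10 level. The other 8 genes lay within a log2 fold change of -0.45 to 0.24. Siglech and Clec9a, markers of pDC and cDC1, were lower in all 3 NOD.B10 libraries than in any BL/10 library, but neither reached the threshold. The median over the 9 genes was 0.08, with 5 of 9 above 0, beside a median of 0.0006 over all tested genes. As 17.3% of all genes were called, 1 call of 9 is near that background. Without adjustment, 4 of the 9 genes had a p under 0.05, 2 in each direction, beside 34.2% of all tested genes (17.2% higher and 17% lower), a share that bears on each unadjusted count given below. The strains did not overlap for 3 of the 9 genes, beside 38% of all tested genes. Of these 3, 1 was higher in NOD.B10 (20.5% of all genes) and 2 were lower (17.5% of all genes).

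**Figure D1:**
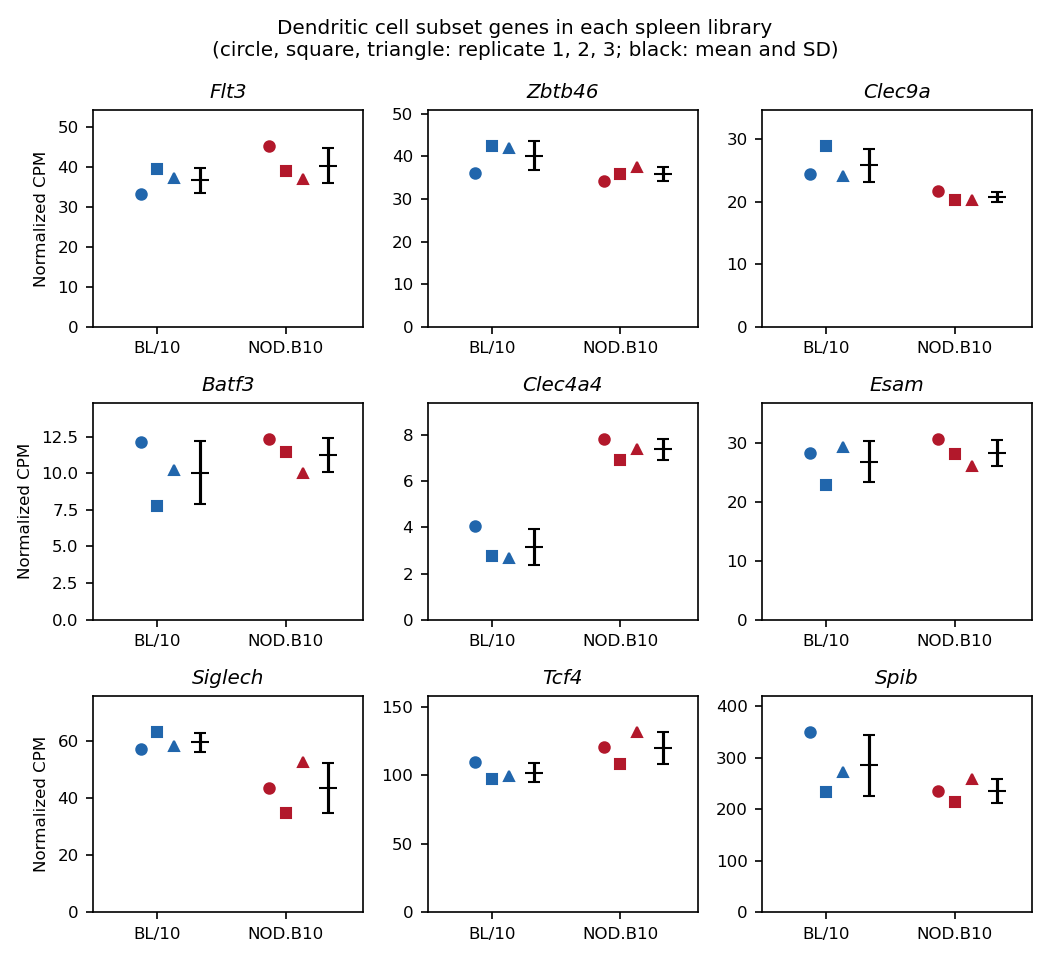
Normalized CPM of the 9 genes in each spleen library, with 1 panel per gene and its own axis from 0. Blue points are the 3 BL/10 and red points the 3 NOD.B10 libraries, with circles, squares and triangles for replicates 1, 2 and 3, and black marks give the mean and SD. Clec4a4 lies at 6.94 to 7.83 CPM in NOD.B10 and at 2.67 to 4.07 CPM in BL/10, while most other panels overlap.

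**Figure D2:**
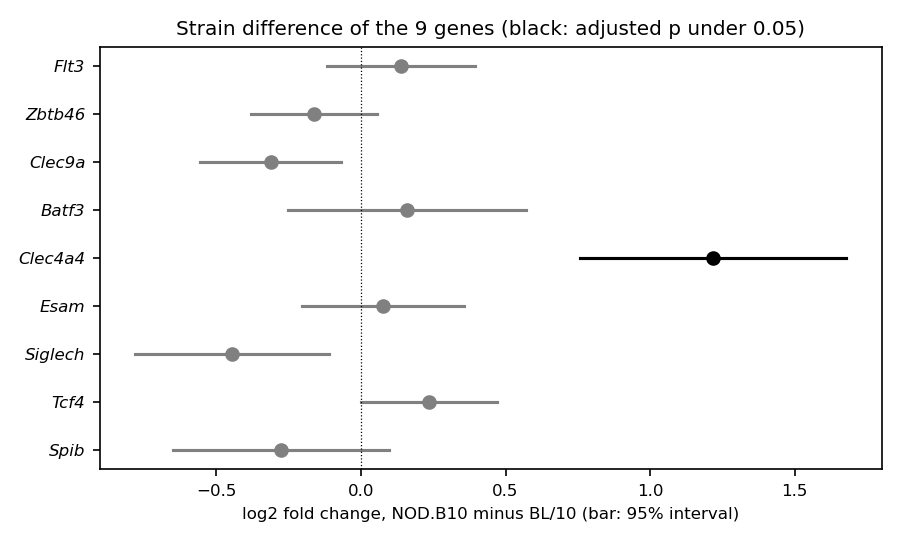
Log2 fold change of each gene (NOD.B10 minus BL/10, horizontal axis) with its 95% interval from edgeR. The black point, Clec4a4 at 1.22, is the gene with an adjusted p under 0.05, and the grey points did not reach it.

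Genes of the whole lineage came first. Flt3 encodes the receptor tyrosine kinase through which FLT3 ligand drives dendritic cell development, and it is also present on early blood progenitors. Flt3 (ENSMUSG00000042817, chromosome 5 from 147330741 to 147400489 of GRCm38) had 45.2, 39.1 and 36.9 CPM in NOD.B10 replicates 1, 2 and 3 and 33.3, 39.6 and 37.2 CPM in BL/10. The strains overlapped, and only NOD.B10 replicate 1 lay above every BL/10 library. Flt3 had a log2 fold change of 0.14 (95% interval -0.12 to 0.39, adjusted p = 0.413). Of 8 stem and progenitor markers, the mast and stem cell factor gene Gata2 fell (log2 fold change -0.79, adjusted p = 0.0121) and 7 were not called (2 called without BL/10 replicate 1). At an unadjusted p under 0.05 in edgeR, 3 were lower and none higher, beside 17% of all tested genes lower. Kit (-0.35) and Cd34 (-0.38) were lower without overlap of the strains. Summed levels were 278 to 328 CPM in NOD.B10 and 251 to 340 CPM in BL/10. Cd48 alone had a mean of 213 CPM in NOD.B10 and 183 CPM in BL/10, so it weighs heavily in these sums. Kit, Cd34 and Cd48 are named here after their values were seen.

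Zbtb46 encodes a zinc finger repressor that sets conventional dendritic cells apart from other myeloid cells, and endothelial cells express it too. It had 34.3, 35.8 and 37.6 CPM in NOD.B10 and 36.2, 42.4 and 42.0 CPM in BL/10. BL/10 replicate 1 fell within the NOD.B10 range, and the other BL/10 libraries lay above it. Zbtb46 had a log2 fold change of -0.16 (95% interval -0.38 to 0.06, adjusted p = 0.263). For both lineage genes the interval excludes a change as large as that of Clec4a4.

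The cDC1 genes moved by less than the threshold. Clec9a encodes DNGR-1, the receptor by which cDC1 recognize actin filaments of dead cells. Clec9a (ENSMUSG00000046080) lies on chromosome 6 from 129408862 to 129424763, and 5.59% of its exon bases overlap those of the platelet lectin gene Clec1b, where reads are not assigned. It had 21.7, 20.3 and 20.3 CPM in NOD.B10 and 24.4, 28.8 and 24.2 CPM in BL/10. All BL/10 libraries were higher, with BL/10 replicate 2 the furthest above. The BL/10 mean was 25.8 ± 2.64 CPM and the NOD.B10 mean 20.8 ± 0.828 CPM (SD, n = 3 each). The log2 fold change of Clec9a was -0.31, with a standard error of 0.11 and an adjusted p of 0.0797 from edgeR. The adjusted p of Clec9a stayed above 0.05 in all 13 alternatives run, between 0.0596 and 0.376.

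Batf3 encodes the AP-1 family factor required for cDC1 development. Its CPM was 12.3, 11.4 and 10.0 in NOD.B10 and 12.1, 7.78 and 10.2 in BL/10, which overlapped widely. The log2 fold change of Batf3 was 0.16 (95% interval -0.25 to 0.57, adjusted p = 0.564). The fold change of Batf3 over 6 fits without 1 library ran from 0.0072 to 0.31, and it was -0.11 in the 26-week libraries, so its direction is not settled.

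Of 15 other cDC1 genes, 1 rose and none fell, with 3 higher and 1 lower at an unadjusted p under 0.05 in edgeR and a median log2 fold change of 0.08. Those 4 of 15 are no larger a share than the 34.2% of all genes. DESeq2 also called 1 of them, and edgeR 2 without BL/10 replicate 1. The called gene was Itgae, the CD103 integrin chain, which T cells also use (14.4 CPM in NOD.B10 against 9.29 CPM in BL/10, log2 fold change 0.63, standard error 0.15, adjusted p = 0.0263). The call of Itgae was lost without NOD.B10 replicate 1 or 2, without BL/10 replicate 2 or 3, and in the 26-week libraries. Xcr1, the chemokine receptor that marks cDC1 most narrowly and is named here after its values were seen, had 32.0, 27.0 and 25.5 CPM in NOD.B10 and 19.1, 24.6 and 17.8 CPM in BL/10. Its log2 fold change of 0.46 (adjusted p = 0.0729) lies opposite to that of Clec9a, also without overlap of the strains. Irf8, the factor that specifies cDC1 and is shared with B cells and pDC, had a log2 fold change of 0.08 (adjusted p = 0.683). Of the 15 other cDC1 genes, 11 lay above 0.

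The promoters of Clec9a and Siglech are shown because they are the only members beside Clec4a4 whose strains did not overlap, and because Tcf4, Spib and Batf3 encode factors with known recognition letters. Both are the 250 bases before the RefSeq start (GRCm38.p6), read 5′ to 3′ on the strand of the gene, with capitals marking E-boxes (CANNTG), the letters that E proteins such as TCF4 recognize.
Clec9a, chr6:129408612-129408861, plus strand: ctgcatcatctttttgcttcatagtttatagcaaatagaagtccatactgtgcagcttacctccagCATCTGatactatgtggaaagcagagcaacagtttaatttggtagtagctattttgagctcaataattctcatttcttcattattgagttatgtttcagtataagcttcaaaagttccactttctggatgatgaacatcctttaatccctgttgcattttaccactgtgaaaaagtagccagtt
Siglech, chr7:55767934-55768183, plus strand: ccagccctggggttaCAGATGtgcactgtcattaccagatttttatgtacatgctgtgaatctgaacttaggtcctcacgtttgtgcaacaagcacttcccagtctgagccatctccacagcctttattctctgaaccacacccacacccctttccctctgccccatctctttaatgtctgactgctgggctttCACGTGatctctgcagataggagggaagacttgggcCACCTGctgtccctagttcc

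Clec9a held 1 E-box, starting 184 bases before the start, and Siglech held 3, starting 235, 56 and 20 bases before it. An E-box stands in 66.2% of the 32851 promoter windows of this length. Each of the 6 members with a RefSeq window (Flt3, Zbtb46, Clec9a, Batf3, Siglech and Spib) held between 1 and 5. The AP-1 letters TGANTCA, searched for BATF3, were found in Zbtb46 alone, 61 bases before the RefSeq start, and stand in 6.75% of windows. That window (chr2:181424389-181424638, minus strand) lies inside the gene as counted, which runs from 181387762 to 181459426, so it belongs to an inner start. The Batf3 window also lies inside its counted gene, and the Siglech window reaches the first bases of its own. The letters GAGGAAGT of the PU.1 and SPIB factors (2.44% of windows), GTGGGAA of the Notch mediator RBPJ (5.42%) and the interferon-stimulated response element (2.98%) were found in none of the 6. Both strands were searched, and a match describes these letters only.

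The cDC2 genes held the gene that changed. Clec4a4 encodes DCIR2, an inhibitory C-type lectin recognized by the antibody 33D1 and used to identify spleen cDC2. Clec4a4 (ENSMUSG00000059639) lies on the plus strand of chromosome 6 from 122990367 to 123024105, in a cluster of related lectin genes. The reads counted were 131, 113 and 132 in NOD.B10 replicates 1, 2 and 3 and 75, 41 and 47 in BL/10. In CPM these were 7.83, 6.94 and 7.42 against 4.07, 2.75 and 2.67. The lowest NOD.B10 library stood well above the highest BL/10 library, and BL/10 replicate 1 was the highest of its strain. The BL/10 mean was 3.16 ± 0.788 CPM and the NOD.B10 mean 7.40 ± 0.448 CPM (SD, n = 3 each). The log2 fold change of Clec4a4 was 1.22, with a standard error of 0.20, a 95% interval of 0.76 to 1.68 and an adjusted p of 0.00631 from edgeR.

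Clec4a4 passed the threshold in 12 of 13 alternatives, DESeq2 included (adjusted p = 1.79e-05), and in all 6 fits without 1 library, where the log2 fold change ran from 1.10 to 1.44. The exception was the comparison of the 26-week libraries, with BL/10 replicate 1 as the single control and its spread taken from NOD.B10, where the log2 fold change was 0.86 and the adjusted p 0.0738.

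Clec4a4 has a close relative nearby. Clec4a2, which encodes DCIR, is 85.7% identical to it over 708 aligned coding bases of the GENCODE M21 transcripts, with 163 identical bases in a row. Of the 727 distinct stretches of 50 bases in the Clec4a4 transcript, the read length of the study, 114 (15.7%) also stand in Clec4a2. Such reads have more than 1 place and are not counted by the settings in the table's header. The 2 stretches below show what a read of the reference sequence can and cannot tell apart. Whether the NOD.B10 genes differ from the reference, and how that bears on their counts, was not tested. The first lies within the shared run and is the same in both genes. The second is the ungapped window of 100 coding bases with the most differences, 31, which are set in capitals.
Clec4a4 and Clec4a2, coding bases 75 to 174 of each: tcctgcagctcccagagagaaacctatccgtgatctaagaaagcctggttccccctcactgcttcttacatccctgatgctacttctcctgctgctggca
Clec4a4, coding bases 504 to 603: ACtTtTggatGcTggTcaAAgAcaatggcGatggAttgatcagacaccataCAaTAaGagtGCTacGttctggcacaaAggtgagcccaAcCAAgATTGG
Clec4a2, coding bases 579 to 678: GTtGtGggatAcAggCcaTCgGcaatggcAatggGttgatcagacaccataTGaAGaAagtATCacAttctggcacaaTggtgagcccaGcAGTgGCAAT

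On GRCm38 both genes are on the plus strand of chromosome 6, and each of these windows crosses 2 exons. The first runs from 122990441 to 122991851 in Clec4a4 and from 123123662 to 123125061 in Clec4a2. The second runs from 123013806 to 123023932 and from 123140703 to 123142396. The relative moved the other way. Clec4a2 had 38.9, 33.3 and 25.1 CPM in NOD.B10 and 41.7, 56.9 and 52.3 CPM in BL/10. It gave a log2 fold change of -0.63, with a standard error of 0.18 and an adjusted p of 0.0476, and the call held without BL/10 replicate 1 and was lost without any 1 of the other 5 libraries, with the replicate block and in the 26-week libraries. Per exon length, the ratio of Clec4a4 to Clec4a2 was 0.760, 0.785 and 1.11 in NOD.B10 and 0.369, 0.182 and 0.193 in BL/10. Among the 8 other Clec4 genes of the cluster none rose, and 2 fell, Clec4a2 and Clec4n (Dectin-2, log2 fold change -0.56, adjusted p = 0.0138), whose call was lost without NOD.B10 replicate 2 or 3. Their median log2 fold change was -0.18. The Clec4 neighbours were chosen after their values were seen.

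Esam encodes an endothelial adhesion molecule that also marks the Notch2-dependent cDC2 of the spleen, and endothelial cells and platelets carry it. It had 30.7, 28.3 and 26.2 CPM in NOD.B10 and 28.4, 22.9 and 29.3 CPM in BL/10. The strains overlapped, with both the lowest and the second highest library in BL/10. Esam had a log2 fold change of 0.08 (95% interval -0.21 to 0.36, adjusted p = 0.695), and without BL/10 replicate 2 it was -0.028. The 2 cDC2 members thus differed from each other. The ratio of Clec4a4 to Esam per exon length was 0.943, 0.908 and 1.05 in NOD.B10 and 0.530, 0.443 and 0.337 in BL/10, and that of Clec4a4 to Zbtb46 was 2.50, 2.13 and 2.16 against 1.23, 0.711 and 0.697. In both ratios every NOD.B10 library lay above every BL/10 library, but 3 libraries against 3 cannot give an exact permutation p below 0.1. Clec4a4 by itself already did not overlap, and no share over all genes was taken for ratios. The ratio of Clec9a to Zbtb46 overlapped, with 1.63, 1.46 and 1.39 in NOD.B10 and 1.74, 1.76 and 1.49 in BL/10. So did that of Batf3 to Zbtb46, with 1.91, 1.70 and 1.42 against 1.78, 0.978 and 1.30.

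Endothelial cells and platelets share Esam, and calls among their markers were often lost when 1 library was left out, whichever it was. Of 12 endothelial markers 2 rose and 1 fell (summed level 715 to 842 CPM in NOD.B10, 651 to 844 CPM in BL/10), and between 0 and 2 of them were called without 1 library, with 0 without NOD.B10 replicate 1 or 3 or BL/10 replicate 2. Of 9 megakaryocyte and platelet markers 2 fell and none rose (588 to 873 CPM against 748 to 1376 CPM), and DESeq2 also called 2. Without BL/10 replicate 2, 4 of them were called, and without any other library none was called by edgeR. At an unadjusted p under 0.05 in edgeR, 5 of these 9 were lower, beside 17% of all tested genes.

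Of 13 other cDC2 genes, 3 were higher and 4 lower at an unadjusted p under 0.05 in edgeR. That is a larger share than the 34.2% of all tested genes. After adjustment 2 rose and 3 fell, also a larger share than the 17.3% of all tested genes. The median of the list was 0.21 on the log2 scale. The genes that rose were Irf4, a factor needed for cDC2 function and also used by plasma cells (log2 fold change 0.53, adjusted p = 0.0431), and Dtx1, a Notch target also expressed by marginal zone B cells (0.53, adjusted p = 0.0395). Those that fell were Clec4a2, Rbpj, the DNA-binding mediator of Notch signals (-0.43, adjusted p = 0.033), and Clec12a, an inhibitory lectin also expressed by neutrophils and monocytes. Clec12a moved most, with 43.3, 40.0 and 44.7 CPM in NOD.B10 and 123, 166 and 131 CPM in BL/10 (log2 fold change -1.71, standard error 0.13, adjusted p = 0.000199). It was the one gene of the 5 called that passed in all 13 alternatives. The count of the list dropped from 5 to 1 without NOD.B10 replicate 1 or replicate 3, to 2 without NOD.B10 replicate 2, BL/10 replicate 2 or BL/10 replicate 3, and to 1 in the 26-week libraries.

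The pDC genes gave values on both sides of 0. Siglech encodes the sialic acid-binding lectin Siglec-H, which marks mouse pDC and is also found on some macrophages. Siglech (ENSMUSG00000051504) lies on chromosome 7 from 55768178 to 55778925. Its reads numbered 729, 570 and 935 in NOD.B10 against 1052, 942 and 1027 in BL/10. The CPM was 43.6, 35.0 and 52.5 in NOD.B10 and 57.1, 63.2 and 58.4 in BL/10. NOD.B10 replicate 3 came closest to BL/10 and replicate 2 lay furthest below. The BL/10 mean was 59.6 ± 3.19 CPM and the NOD.B10 mean 43.7 ± 8.77 CPM (SD, n = 3 each). The log2 fold change of Siglech was -0.45, with a standard error of 0.14 and an adjusted p of 0.0717 from edgeR.

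Siglech crossed the threshold with DESeq2 (adjusted p = 0.0402), with no filter beyond 1 count (0.0453 in edgeR) and without NOD.B10 replicate 3 (log2 fold change -0.60, adjusted p = 0.0322 in edgeR). In the other 10 alternatives it did not, and the highest adjusted p was 0.362, in the 26-week libraries. Its direction was the same in all 13.

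**Figure D3:**
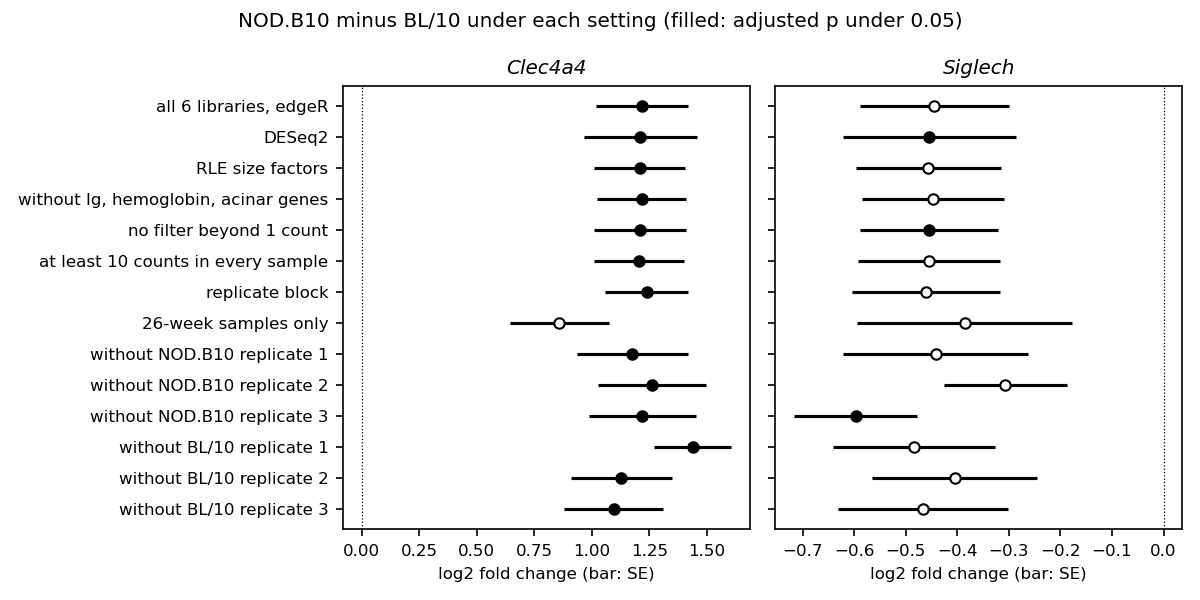
Log2 fold change (NOD.B10 minus BL/10) with its standard error for Clec4a4 and Siglech under the main setting and each of the 13 alternatives. Filled points have an adjusted p under 0.05, which holds for Clec4a4 in all settings except the 26-week libraries and for Siglech in 3 alternatives.

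Tcf4 encodes E2-2, the E protein that establishes and maintains the pDC fate, and many other cells, B cells among them, express it. Its CPM was 120, 108 and 131 in NOD.B10 and 109, 96.9 and 99.3 in BL/10. BL/10 replicate 1 lay just above NOD.B10 replicate 2, and the other libraries were separate. Tcf4 differed by 0.24 on the log2 scale (standard error 0.10, adjusted p = 0.145), opposite in sign to that of Siglech. The ratio of Siglech to Tcf4 per exon length was 2.93, 2.62 and 3.24 in NOD.B10 and 4.23, 5.28 and 4.76 in BL/10, without overlap. Siglech by itself already did not overlap, and no share over all genes was taken for this ratio.

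Spib encodes the Ets factor Spi-B, which acts in pDC and, at high levels, in B cells. It had 235, 213 and 258 CPM in NOD.B10 and 349, 233 and 273 CPM in BL/10. The strains overlapped, and BL/10 replicate 1 stood above the rest. Spib differed by -0.28 on the log2 scale (standard error 0.16, adjusted p = 0.261). Without BL/10 replicate 1 it was -0.11, and in the 26-week libraries, with that replicate as the single control, it was -0.57 (adjusted p = 0.0721). BL/10 replicate 1 also had the highest summed level of 12 B cell markers, 5542 CPM. BL/10 replicates 2 and 3 had 3114 and 3397 CPM, and the NOD.B10 libraries 4164 to 5403 CPM. None of the 12 B cell markers was called by edgeR, 1 was higher at an unadjusted p under 0.05 and DESeq2 called 1, but 8 were called higher in NOD.B10 by edgeR without BL/10 replicate 1.

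Of 15 other pDC genes, 3 fell and none rose in edgeR, with 4 lower and 1 higher at an unadjusted p under 0.05 and a median log2 fold change of 0.02. The unadjusted count in both directions is near the 34.2% of all tested genes (17% lower and 17.2% higher). By direction, the 4 lower genes are a larger share than that 17%, and the 1 higher gene a smaller share than the 17.2%. The 3 genes that fell after adjustment are also a larger share than the 8.22% of all tested genes. DESeq2 called 3 of them as well. Ly6d, a surface protein of pDC and of other lymphoid cells, had 166, 125 and 164 CPM in NOD.B10. It had 738, 455 and 386 CPM in BL/10 (log2 fold change -1.80, standard error 0.25, adjusted p = 0.00319). BL/10 replicate 1, the highest for Ly6d, also had the highest summed B cell markers. BL/10 replicates 2 and 3 had more Ly6d but lower B cell sums than any NOD.B10 library. The part of B cells in this difference was not tested. Smim5, a small membrane protein gene, had 10.6, 10.8 and 10.5 CPM against 22.9, 35.1 and 32.0 CPM (log2 fold change -1.50, adjusted p = 0.00112). Irf7, the factor that drives interferon production in pDC and is itself induced by interferon in most cells, had a log2 fold change of -1.27 (adjusted p = 0.0155). Ly6d and Smim5 passed in all 13 alternatives, and Irf7 lost its call without NOD.B10 replicate 3, without BL/10 replicate 3 and in the 26-week libraries. The receptors by which pDC sense nucleic acids, named here after their values were seen, were not called, with a log2 fold change of 0.12 for Tlr7 (adjusted p = 0.396) and 0.06 for Tlr9 (adjusted p = 0.808).

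Of 12 tested genes shared by dendritic cells or tied to their maturation, 1 rose and none fell, with 4 higher and none lower at an unadjusted p under 0.05 in edgeR and a median of 0.13. The gene was Ccl22, a chemokine of mature dendritic cells that attracts regulatory T cells (8.43 CPM in NOD.B10 against 5.87 CPM in BL/10, log2 fold change 0.52, adjusted p = 0.0261). Its call was lost in 5 of the 6 fits without 1 library. At that unadjusted threshold 17.2% of all tested genes were higher and 17% lower, while the 4 genes of this list were all higher. Beside Ccl22 these were Ciita, Cd40 and Ccr7, named here after their values were seen. Within BL/10 they were highest in replicate 1, as were the summed B cell markers. Ciita had 212, 133 and 142 CPM in BL/10 replicates 1, 2 and 3, and Cd40 had 52.9, 33.8 and 38.2 CPM. The part of B cells in this count was not tested. DESeq2 called 3 genes of this list, and edgeR called 5 without BL/10 replicate 1. Itgax, the CD11c integrin chain by which dendritic cells are usually gated, had a log2 fold change of 0.18 (adjusted p = 0.217) and is named here after its values were seen.

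**Figure D4:**
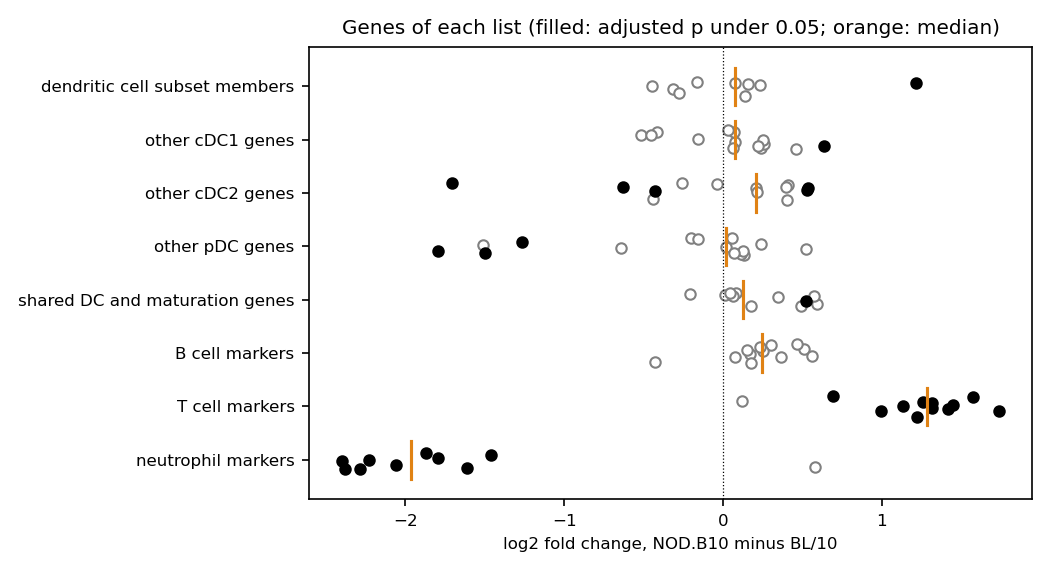
Log2 fold change (NOD.B10 minus BL/10) of every tested gene in the dendritic cell lists and in the B cell, T cell and neutrophil marker lists. Filled points have an adjusted p under 0.05 and orange lines are list medians, which lie between 0.02 and 0.21 for the dendritic cell lists, at 1.29 for T cell and at -1.96 for neutrophil markers.

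The remaining marker lists were mixed. Of 8 NK cell markers 1 rose and 2 fell, and of 10 red pulp macrophage markers 2 rose and 1 fell, with summed levels that overlapped between the strains (122 to 178 against 144 to 203 CPM, and 3793 to 4953 against 3968 to 4640 CPM). The NK cell count was 1 without NOD.B10 replicate 3 and in the 26-week libraries, and the red pulp count was 6 with DESeq2, 4 higher and 2 lower, and 1 in the 26-week libraries. No marker of any list was at 0 counts in all libraries.

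Levels of the 9 genes were then compared per exon length, as CPM per kb. That length counts all annotated exons, from 0.776 kb for Clec4a4 to 27.4 kb for Tcf4, so the order also depends on the annotation. Tcf4, the lowest per kb in BL/10, had 102 CPM there, above Siglech at 59.6 CPM. In BL/10 the order was Spib (99.5), Siglech (17.6), Esam (9.38), Clec9a (7.83), Batf3 (6.29), Flt3 (5.95), Zbtb46 (4.72), Clec4a4 (4.08) and Tcf4 (3.72). Spib stood apart from Siglech, Siglech from Esam and Flt3 from Zbtb46, while the libraries of all other neighbours overlapped. In NOD.B10 Clec4a4 was the fourth of the 9, at 9.53 CPM per kb, overlapping Esam (9.90) and above Batf3 (7.04) without overlap. Clec9a (6.30) came after Flt3 (6.54), and Zbtb46 (4.22) was the lowest, overlapping Tcf4 (4.38). Spib remained the highest in NOD.B10, at 82.1 CPM per kb.

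**Figure D5:**
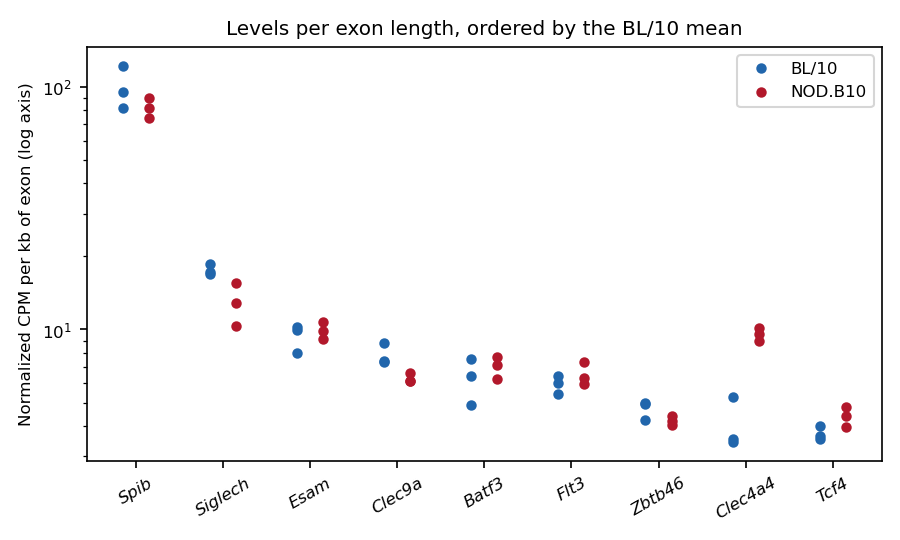
Level of each gene per exon length (normalized CPM per kb, log axis) in the BL/10 (blue) and NOD.B10 (red) libraries, ordered by the BL/10 mean. Spib lies highest in both strains, and Clec4a4 is at 3.44 to 5.25 in BL/10 and 8.94 to 10.1 in NOD.B10.

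Across the 6 libraries the members did not vary as 1 group. On log2 CPM, Pearson's r was -0.87 between Clec4a4 and Clec9a, -0.76 between Clec4a4 and Siglech, 0.77 between Clec9a and Siglech, 0.86 between Clec4a4 and Tcf4 and 0.90 between Batf3 and Esam. These values describe 6 libraries that share the split between strains. Among 14218 other genes with a mean of at least 1 CPM, those most like Clec4a4 were Jak3 (r = 0.9992), ENSMUSG00000079190 (0.999) and Arid5a (0.9987). Those most like Clec9a were Sqle (0.998), Mrpl14 (0.9973) and Map2k4 (0.9925), and those most like Siglech were Dnajc17 (0.9981), Lpcat2 (0.9928) and Alg9 (0.9913). With so many genes and 6 libraries, such values are a description of these samples.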

How the data were processed

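The authors deposited unnormalized counts of spleen RNA reads for each gene, beside its exon length. Per the file header, the authors counted exon reads by featureCounts 1.5.1 on GRCm38 genes of Ensembl release 84, without strand and with reads of several places or genes left out. The aligner is Tophat2 in the methods and HISAT2 2.0.5 in the submitters' processing notes. Symbols came from GENCODE M21 (47224 of 47729 identifiers matched), sequences from GENCODE M21 and RefSeq. Of the genes in the lists, 1 (Flt3l) was not matched.

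Counts were filtered by filterByExpr, normalized by TMM and tested with edgeR 4.0.16 in R 4.3.3, with each standard error taken as the fold change over the root of its F, and DESeq2 1.42.0 as an alternative. In simulated counts of this comparison (15132 genes run), 104 of 110 genes changed by a log2 fold of 2 were found and 64 of 90 changed by 1, with 9 unchanged genes called. The members and lists were chosen with earlier results of these data known. Named genes are all members, up to 4 called genes with the smallest p per list (some named without values or left out), the 3 most alike genes of Clec9a, Clec4a4 and Siglech, and those said to be named after their values were seen. Alternatives were DESeq2, RLE size factors, leaving out immunoglobulin, hemoglobin and acinar genes, other filters and thresholds, a replicate block, the 26-week libraries and leaving out each replicate. Replicates differed by more than counting noise (chi-square per degree of freedom at least 12.5).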

Additional observations from a re-analysis of the deposited data

How the results depend on the processing

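Of 117 fits of single members under the 13 alternatives, 110 kept the direction and the side of the threshold. The direction reversed for Batf3 (-0.11) and Esam (-0.0027) in the 26-week libraries and for Esam without BL/10 replicate 2 (-0.028, where fits without 1 library reached up to 0.13), and none of these 3 was called. The number of members called was 1, and it was 2 with DESeq2 and with no filter beyond 1 count (Siglech added, lower), between 1 and 2 without 1 library (2 without NOD.B10 replicate 3), and 0 by edgeR in the 26-week libraries, where 2 members (Clec4a4 and Spib) had an unadjusted p under 0.05 and DESeq2 was not run. Over all genes, 2656 were called, against 1001 in the 26-week libraries, 1035 at an adjusted p under 0.01 and between 1269 (without NOD.B10 replicate 1) and 4107 (without BL/10 replicate 1) without 1 library. The cause was not tested, and fits without 1 library and the 26-week fit hold fewer samples. Of 169 counts of the other lists, 119 were within 1.5 times of the main count. Whether replicate numbers pair the libraries cannot be settled with so few libraries. The correlations of same-numbered deviations were 0.0542, 0.252 and -0.0762, and 3 of 6 libraries correlated best with their own number. With a replicate block, 2889 genes and 1 member were called. The depth limits Clec4a4 most, with as few as 41 counts in a library.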
